A study of Monodelphis domestica with 5 samples.

Results

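In primary ear fibroblasts of the grey short-tailed opossum, 1506 peaks of trimethylation of histone H3 at lysine 9 (H3K9me3) shared at least 1 base with a peak of trimethylation at lysine 4 (H3K4me3) and at least 1 base with a peak of acetylation at lysine 9 (H3K9Ac). They were taken from the 152259 H3K9me3 peaks deposited for chromosomes 1 to 8, so the regions of overlap were 0.989% of that list, and they are called triple-overlap peaks below. All deposited peaks were used, and those of H3K9me3 had scores from 30 upward. For each triple-overlap peak, the highest-scoring H3K4me3 peak that it met had a score of 50.31 or more. The highest-scoring H3K9Ac peak had 50.05 or more. A score is the p-value of a peak over input chromatin from the MACS peak caller, expressed as -10 log10. A further 2637 H3K9me3 peaks overlapped H3K4me3 without H3K9Ac, 90 overlapped H3K9Ac without H3K4me3, and 148026 overlapped neither. In all, 2.72% of H3K9me3 peaks met H3K4me3 and 1.05% met H3K9Ac. On the X chromosome 1 of 497 H3K9me3 peaks met both, and on unplaced sequence 48 of 6978 did (0.688%). Neither is included below.

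Native chromatin immunoprecipitation followed by sequencing was used, in which chromatin is digested with micrococcal nuclease and not crosslinked. The cells were cultured fibroblasts at passage 4 to 6 from 1 adult male F1 animal, from a cross of an LL1 mother with an LL2 father, and no transgene or treatment is given for them. Per the labels, chromatin was pooled for sisters only. There was 1 library for each of 4 antibodies, against H3K4me3, H3K9Ac, H3K9me3 and trimethylation of H3 at lysine 27 (H3K27me3), and 1 library of input. With 1 animal and 1 library per mark, no value has a replicate error and no difference was tested. The intervals given are exact 95% intervals that treat peaks as independent and cover counting error only. The peak lists hold no read counts, so the depth behind a peak is unknown, and peaks of a population of cells do not separate the maternal from the paternal allele or one cell from another.

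H3K4me3 and H3K9Ac are marks of activation (MOA). They sit on nucleosomes around the start sites of transcribed genes, and H3K4me3 is laid down by the SET1 and MLL methyltransferases. H3K9me3 is a mark of repression (MOR), laid down by SUV39H and SETDB1 enzymes and bound by the HP1 proteins of heterochromatin. A single lysine 9 cannot carry an acetyl group and methyl groups at once, so the overlap of an H3K9Ac and an H3K9me3 peak joins different histone tails. Opposing marks on the 2 alleles of a promoter are a known feature of imprinted genes, which is why such regions were sought in this species.

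The triple-overlap peaks were of 2 main kinds, those lying across a border of the active domain and those lying within it. Of the 1506, 853 (56.6%, interval 54.1 to 59.2) crossed a border of a single H3K4me3 peak and of a single H3K9Ac peak. Another 302 (20.1%, 18.1 to 22.2) lay wholly inside the H3K4me3 peak and crossed a border of the H3K9Ac peak. A further 234 (15.5%, 13.7 to 17.5) lay wholly inside both. The remainder comprised 90 that touched several peaks of a mark, 20 that covered a whole active peak, and 7 that crossed an H3K4me3 border from within H3K9Ac. When the H3K9me3 peaks were shortened by 250 bases at both ends, 25.8% lay inside both and 41.2% crossed both borders. Taken by mark, 37.5% lay inside H3K4me3 and 16.3% inside H3K9Ac. Of all 4143 H3K9me3 peaks that met H3K4me3, 19.6% lay inside it, and among the 2637 without H3K9Ac 9.37% did (8.28 to 10.5). The requirement for both active marks itself favours peaks that reach far into an H3K4me3 domain, so these shares describe the regions and are not support for a preference.

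The 863 triple-overlap peaks that crossed 1 border of 1 H3K4me3 peak were centred close to that border. They reached a median of 857 bases into the H3K4me3 peak (quartiles 479.5 and 1171) and 798 bases beyond it (372.5 and 1364), and 417 of the 863 reached further in than out. The part inside was a median of 27.2% of the H3K4me3 peak. The lower-coordinate border was crossed in 438 cases and the higher-coordinate border in 425. The 863 regions fell on 840 H3K4me3 peaks, and 23 of these were crossed at both borders. Crossing was rare at any border, since H3K4me3 peaks that overlapped H3K9Ac had 88440 borders. The small number of double crossings is therefore no sign of one-sided marking. H3K9me3 peaks at the other border that missed H3K9Ac were not counted.

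Across such borders H3K9me3 peaks covered 18.5% of the 863 at 2 kb outside, 42.3% at 1 kb outside, 38.8% at 1 kb inside and 7.76% at 2 kb inside. Peaks that passed through a whole domain belong to another class, which limits the inward reach. H3K9Ac covered 17.6% of them at the H3K4me3 border itself, 57.1% at 0.4 kb inside and 87.9% at 1 kb inside. H3K9Ac therefore began further inward than at the opposite end of the same domains. The set-back was compared for 812 of the 863, each the only one at a border of an H3K4me3 peak that overlapped H3K9Ac. Domains crossed at both borders were left out. The H3K9Ac border was set back by a median of 324 bases (66 to 628.5) on the side of the triple-overlap peak. On the opposite side the median was 141 bases (-111 to 427.25), where negative values mean that H3K9Ac extended beyond H3K4me3. The set-back was smaller on the side of the triple-overlap peak in 295 of the 812 and larger or equal in the others. Over both borders of all H3K4me3 peaks that overlapped H3K9Ac it was 134 bases. At the 85532 borders of untouched domains H3K9me3 covered 1.996% at 1 kb outside and 0.144% at 1 kb inside. Low values inside are fixed by the definition, since a domain whose doubly marked part met H3K9me3 would count as touched. H3K27me3, the Polycomb mark, covered 5.21% of the 863 borders at 1 kb outside. At the same distance it covered 0.862% of the opposite borders and 0.530% of the borders of untouched domains.

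**Figure D1:**
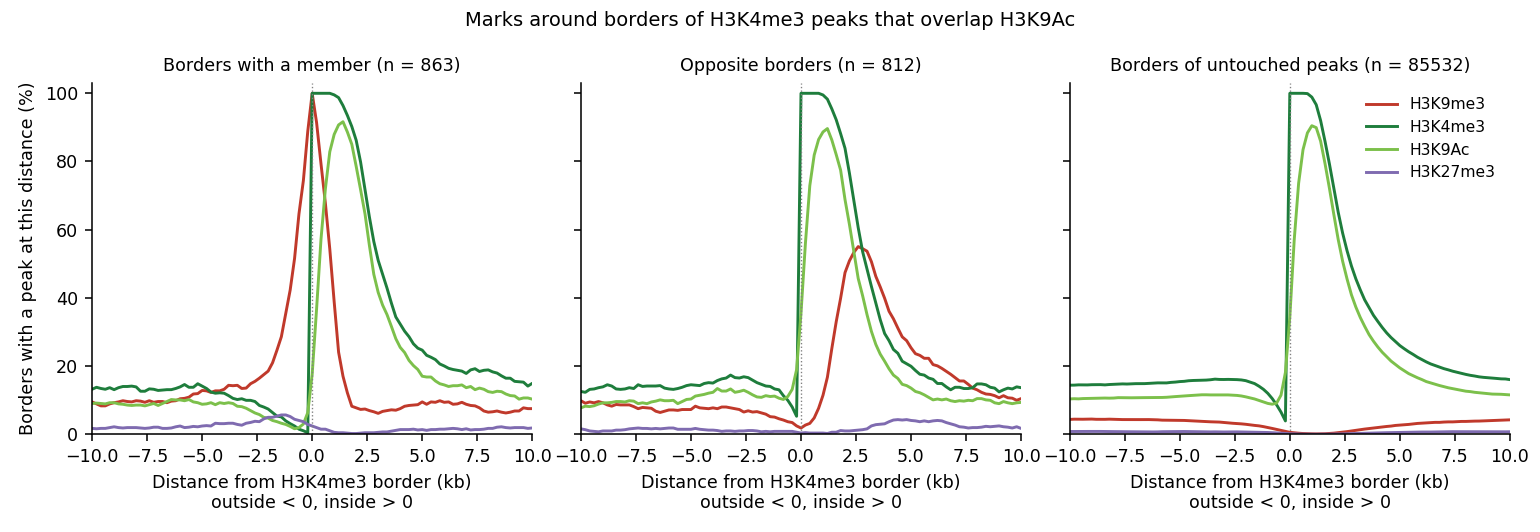
Percent of borders covered by a peak of each mark (vertical axis) against distance in kb from the border of an H3K4me3 peak that overlaps H3K9Ac, with negative values outside the peak. Left, the 863 borders crossed by a triple-overlap peak ("member" in the titles), where H3K9me3 is at 100% at the border by definition. Middle, the opposite borders of 812 of these domains. Domains crossed at both borders were left out, which lowers H3K9me3 at the opposite borders by choice. Right, 85532 borders of domains without a triple-overlap peak. H3K9Ac stands at 17.6% at crossed borders, at 35.5% at the opposite ones and at 34.4% at those without a triple-overlap peak.

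The 234 peaks inside both active marks lay deep within their domains. The median distance to the nearer H3K4me3 border was 2450 bases (quartiles 1182.5 and 4169.25, range 86 to 17220), and to the nearer H3K9Ac border 1673.5 bases. Of the 234, 153 were at least 1000 bases from all 4 borders, and 1 was within 100 bases of an H3K4me3 border. Their centres lay at a median of 33.3% of the H3K4me3 peak width from its nearer end, and they took up a median of 14.5% of that width. The 302 peaks inside H3K4me3 that crossed an H3K9Ac border lay nearer to the edge, at a median of 416 bases from it.

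The domains around the enclosed peaks were broad and strong. The H3K4me3 peak had a median width of 10965.5 bases around the 234 enclosed peaks, 5153 bases around the 302 and 2874 bases at the 853 that crossed both borders. For H3K9Ac these medians were 7914.5, 2912.5 and 2357 bases. An H3K4me3 score of at least 3100, at which most of the highest scores in the lists were capped, was found around 166 of 234 enclosed peaks (70.9%) and at 49 of the 853 border peaks (5.74%). For H3K9Ac the same score was found at 135 (57.7%) and 36 (4.22%). A wide domain has more room for an enclosed peak, so the widths follow in part from the definition of the class.

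The H3K9me3 peaks themselves were weaker inside than at borders. The median score was 54.0 (quartiles 37.2 and 96.7) for peaks inside both, 53.8 (38.4 and 98.9) for those inside H3K4me3 alone and 76.2 (46.9 and 146) for border peaks, and the ranges overlapped widely. Median widths were 1366.5, 1349.5 and 1629 bases. A score of at least 50, or p of at most 1e-05, was reached by 53.8% of enclosed peaks and 72.0% of border peaks, against 53.8% of all H3K9me3 peaks. Over all triple-overlap peaks 66.5% reached it, and 34.4% reached a score of 100 against 16.3% of all H3K9me3 peaks. Peaks with H3K4me3 alone scored higher still, with a median of 83.6 against 69.4 and 72.3% at a score of 50. The 20 peaks that covered a whole active peak were the strongest class, with medians of 197 for the score and 3585.5 bases for the width, over H3K4me3 peaks of 2239.5 bases.

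H3K27me3, which was not used in the choice of regions, was also distributed by position. It overlapped 64 of the 1506 triple-overlap peaks (4.25%, 3.29 to 5.39), close to the 3.9% of all H3K9me3 peaks, and 8.19% (7.17 to 9.30) of those with H3K4me3 alone. It overlapped 54 of 853 border peaks (6.33%, 4.79 to 8.18), 3 of 302 peaks inside H3K4me3 (0.993%, 0.205 to 2.88) and 5 of the 20 that covered an active peak (25%, 8.66 to 49.1). None of the 234 peaks inside both active marks overlapped H3K27me3, where 3 counts of the total would be 1.28% and the exact upper bound is 1.56%. These intervals cover counting error only, and the difference between positions was not tested. Border peaks were also wider, with a median of 1629 bases. The medians were 1366.5 bases for peaks inside both marks and 1349.5 for those inside H3K4me3 alone. The enclosed peaks lie away from the domain edge, where H3K27me3 was found, and the part of that distance in the result was not tested. H3K27me3 was also scarce inside active domains without a triple-overlap peak. It covered 0.0246% of their borders at 1 kb inside, against 0.530% at 1 kb outside. Its absence is thus not particular to the enclosed peaks.

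The share of a triple-overlap peak that carried all 3 marks was mostly a minority of its length. The 1506 peaks held 2.94 Mb, of which 64.7% lay under H3K4me3, 38.2% under H3K9Ac and 37.0%, or 1.09 Mb, under both. The median peak had 32.7% of its bases in common with both. The common part was below 25% of the peak but above 0 in 596 cases (39.6%), from 25% to below 50% in 391 (26.0%), from 50% to below 75% in 187 (12.4%), from 75% to below 100% in 91 (6.04%) and complete in the 234 enclosed peaks. Border peaks had a median of 21.6% in common and peaks inside H3K4me3 alone 41.2%. H3K4me3 covered more of the peak than H3K9Ac in 1117 cases, less in 154 and equally much in 235. In 7 peaks the active marks met the H3K9me3 peak at separate places and no base was common to the 3 marks.

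**Figure D2:**
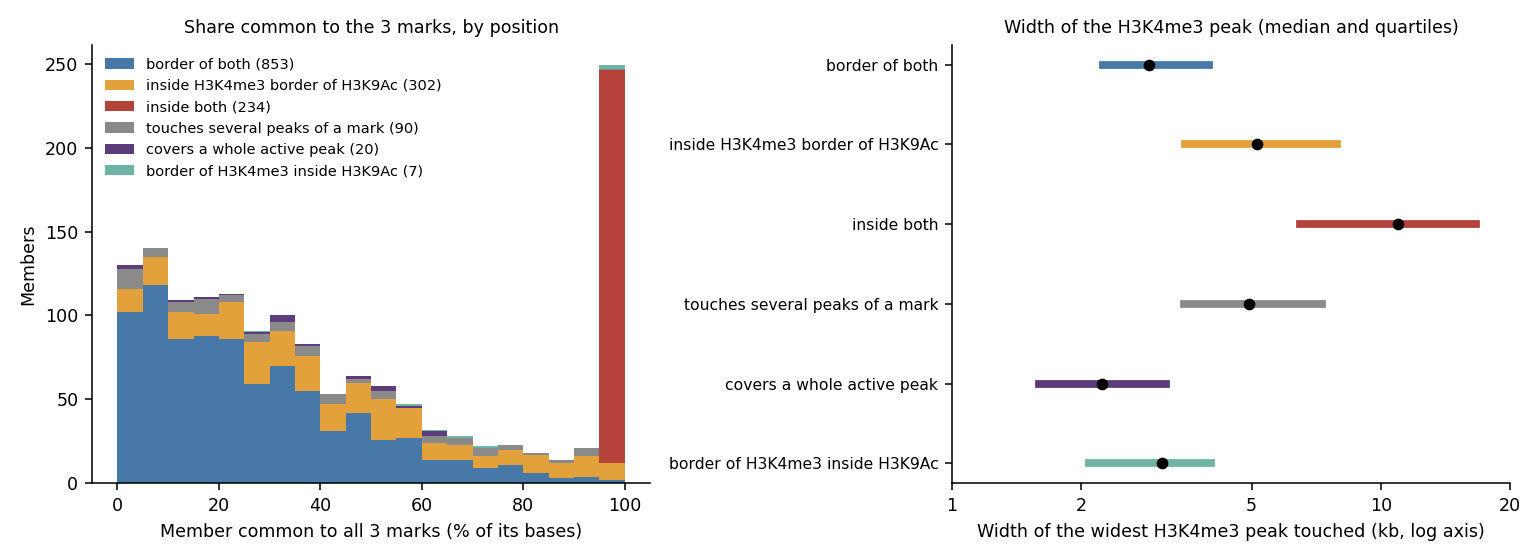
Left, number of triple-overlap peaks ("members" on the axis) by the percent of their bases that lie under both active marks, in steps of 5%, coloured by position with the number of peaks in brackets. Right, width in kb, on a log axis, of the H3K4me3 peak at each position, with the point at the median and the bar between the quartiles. The 234 enclosed peaks form the column at 100%, and their H3K4me3 peaks have the largest median width, 10965.5 bases.

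Overlaps at the limit of the definition were small. The 3 with the smallest overlap were chr3:236586318-236588889, with 1 base in H3K9Ac, chr1:542603624-542605163 with 3 bases and chr5:14047649-14048848 with 4 bases. Just outside were chr6:81500223-81503733, which abutted an H3K9Ac peak with 0 bases between, chr1:577705478-577706851 at 1 base and chr4:62802448-62805106 at 2 bases, all of which overlapped H3K4me3. In 147 triple-overlap peaks the smaller overlap was under 100 bases, and in 150 peaks outside the definition the missing mark was under 100 bases away. All coordinates are of the MonDom5 build and count from 1.

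Seen from the active domains, triple overlap was infrequent at ordinary H3K4me3 peaks and common at very broad ones. Of the 44220 H3K4me3 peaks that overlapped H3K9Ac, 1454 (3.29%) were touched by a triple-overlap peak. The touched share was 0.980% for H3K4me3 peaks under 1 kb (5 of 510), 1.26% at 1 to 2 kb (157 of 12460), 3.35% at 2 to 5 kb (833 of 24882) and 5.13% at 5 to 10 kb (282 of 5499). It was 17.2% at 10 to 20 kb (135 of 787, interval 14.6 to 19.97) and 51.2% from 20 kb (42 of 82, 39.9 to 62.4). The share of peaks that held an enclosed triple-overlap peak was 0.982% at 5 to 10 kb, 10.8% at 10 to 20 kb and 39.0% from 20 kb.

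The rise with width was also present per base, although a wide peak offers more bases for an overlap. Of the bases under both active marks, 0.393% lay in a triple-overlap peak within H3K4me3 peaks of 1 to 2 kb, 0.786% at 2 to 5 kb, 0.802% at 5 to 10 kb, 2.89% at 10 to 20 kb and 6.08% from 20 kb. Enclosed peaks numbered 0.733 per Mb of doubly marked sequence at 2 to 5 kb, 2.03 at 5 to 10 kb, 12.1 at 10 to 20 kb and 23.0 from 20 kb. A narrow domain has few places where a whole H3K9me3 peak can lie inside it. The rise in enclosed peaks therefore follows in part from the definition of the class, also per Mb. An H3K4me3 score of at least 3100 was held by 7.54% of the H3K4me3 peaks of 2 to 5 kb, 56.7% at 5 to 10 kb, 85.6% at 10 to 20 kb and all of those from 20 kb, so that width and strength cannot be told apart here. Over all domains, 0.951% of the 114.45 Mb under both active marks lay in a triple-overlap peak.

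**Figure D3:**
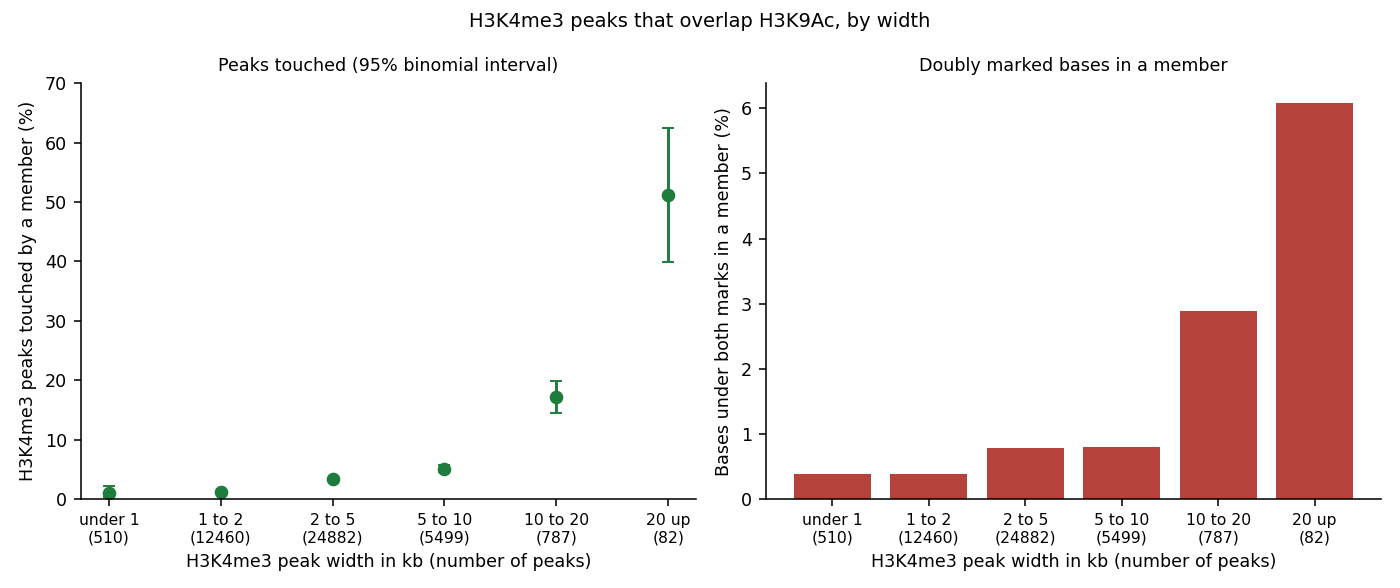
H3K4me3 peaks that overlap H3K9Ac, grouped by width in kb, with the number of peaks in brackets. Left, percent touched by a triple-overlap peak ("member"), with exact binomial 95% intervals, from 0.980% under 1 kb to 51.2% from 20 kb. Right, percent of the bases under both active marks that lie in a triple-overlap peak, up to 6.08%.

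The chromatin around triple-overlap peaks held less H3K9me3 than that around H3K9me3 peaks with neither active mark. Over the 8 chromosomes as a whole, H3K9me3 peaks covered 268.37 Mb of 3422.93 Mb, at 44.5 peaks per Mb. Within 50 kb on both sides there was a median of 3 other H3K9me3 peaks, covering 5.38% of the bases, compared with 9 peaks and 15.3% around H3K9me3 peaks with neither active mark. H3K9me3 peaks with H3K4me3 alone had 4 peaks and 6.51%. Within 10 kb the covered share was 1.2% around triple-overlap peaks and 14.995% around peaks with neither mark. No other H3K9me3 peak lay within 50 kb of 8.96% of triple-overlap peaks and of 3.25% of those with neither mark. The nearest H3K27me3 peak was at a median of 98.0 kb, 80.7 kb for those with H3K4me3 alone, 92.1 kb for those with H3K9Ac alone and 236.5 kb for those with neither active mark.

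The highest-scoring region was also by far the widest. The peak chr1:333174971-333256054 spanned 81084 bases, had a score of 3100 and met 8 H3K4me3 and 8 H3K9Ac peaks. H3K4me3 covered 56.1% of it and H3K9Ac 16.4%, and the common 13323 bases were the most of any region. The H3K4me3 peaks within it ranged up to 27456 bases in width, while the widest H3K9Ac peak had 2299 bases. It was followed after 1.01 kb by chr1:333257060-333263972 (score 925), which lay within an H3K4me3 peak of 16411 bases and had 34.4% in common with both marks. H3K27me3 took up the lower-coordinate part, with 14 of the 18 H3K27me3 peaks within 60 kb of the centre below it and 3 above it. All 9 H3K9Ac peaks of that window were above the centre.

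The listed position of PCDHGC5, a gene of the gamma protocadherins, a cluster of cell adhesion genes with many alternative promoters, was 82.0 kb from the wide peak and 74.0 kb from the second. The wide peak overlapped the listed positions of 2 candidates, LOC100027670, so named from the RefSeq table, and 1 without a symbol. The listed position of a gene here is its 3'-UTR region, read from the candidate list of the study, and it can be far from the start of the gene.

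The second-highest score, 2036, belonged to the first of 11 triple-overlap peaks on 93.3 kb of chromosome 5 (chr5:184150022-184243298), the largest group when peaks up to 50 kb apart were joined. This first peak, of 16187 bases, crossed the border of an H3K4me3 peak of 21757 bases and had 17.4% of its bases in common with both marks. Of the other 10, 8 lay inside both active marks, and the 2 that lay inside H3K4me3 alone were 99.2% and 99.4% common to the 3 marks. Scores within the group ranged from 34.8 to 2036. Bases common to the 3 marks made up 70.7% of the group, over 5 H3K4me3 peaks. Here too H3K27me3 was on one side, with 14 of 15 peaks within 100 kb of the centre of the first peak on its lower-coordinate side and the enclosed peaks on the other. No listed gene position lay within 10 kb.

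Further groups differed in position. On chromosome 3, 5 triple-overlap peaks over 151 kb (chr3:522973872-523124540) had scores of 137 to 937, and none was inside an H3K4me3 peak, with 12.1% of bases in common. On chromosome 8, 4 peaks over 50.3 kb (chr8:13576404-13626705) had scores of 52.1 to 333 and all 4 lay inside both active marks.

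Among other high scores, chr2:480778534-480789240 (score 1898) covered an H3K4me3 peak of 3436 bases and an H3K9Ac peak of 1811 bases entirely. The peak chr8:67461686-67469943 (1120) lay within an H3K4me3 peak of 21993 bases but had 8.31% of its bases under H3K9Ac. The peak chr3:696576-701902 (1188) touched both active marks at its end with 3.70% of its bases. All 10 of the highest scores belonged to peaks with less than 50% of their bases in common with both active marks. The highest score inside both marks was 676, on chr5:184212039-184216246 in the group described above.

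Within 10 kb of the listed positions of candidate genes, enclosed peaks predominated, while genes in general were not examined. Positions were available for 176 candidate genes of the study on chromosomes 1 to 8 and for IGF2R, which was listed as a known imprinted gene. The 176 had been chosen by the study for promoters where the same peak lists overlapped, so that a triple-overlap peak nearby follows in part from that choice. As positions are 3'-UTR regions, the distance from them also depends on the length of the gene. A triple-overlap peak lay within 10 kb of 60 of the 176 positions (34.1%) and within 100 kb of 138. At 43 of the 60 the nearest was inside both active marks, at 8 it crossed both borders, at 6 it was inside H3K4me3 alone, at 2 it touched several peaks and at 1 it covered an active peak. Among all triple-overlap peaks 15.5% were inside both. Most of the 1506 peaks had no listed gene close by, since 61 were within 10 kb of a position.

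Immediate early and inducible genes, which respond to serum, stress or growth signals, made up the list with the most positions near a triple-overlap peak. The list was drawn up with earlier results of these data known. Its listed genes are candidates chosen by overlap of the same peaks, and gene length was not taken into account. The count is therefore a description and no evidence of a trait of inducible genes. Of 26 such genes, 16 were listed and 15 of these had a triple-overlap peak within 10 kb, beside the 60 of 176 given above: ADM, BHLHE40, CEBPB, CEBPD, CYP1B1, DUSP6, ID1, ID2, ID3, JUNB, MCL1, MYC, NFKBIZ, PTGS2 and SQSTM1. At all 15 it lay inside both active marks, both of which had scores of at least 3100. The H3K9me3 scores ranged from 34.4 to 277. The highest was at MCL1, an anti-apoptotic member of the BCL2 family, where chr2:495753023-495756344 (3322 bases) lay within an H3K4me3 peak of 15782 bases and an H3K9Ac peak of 11075 bases and was the only H3K9me3 peak within 20 kb of its centre. At CYP1B1, a cytochrome P450 induced by the aryl hydrocarbon receptor, chr1:663117201-663121210 (score 181) spanned 4010 bases in an H3K4me3 peak of 14678 bases, beside a second triple-overlap peak 0.284 kb away.

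At NFKBIZ, an inducible regulator of NF-kappaB, the score was 201. It was 133 at PTGS2, the inducible cyclooxygenase, 133 at BHLHE40, a repressor of the circadian clock, and 119 at ID1 and 112 at ID2, inhibitors of basic helix-loop-helix factors. The score was 79.6 at JUNB and 45.2 at MYC, transcription factors of the early growth response, 63.3 at ADM, the vasodilator peptide adrenomedullin, and 54.7 at ID3. The lowest scores besides MYC were at CEBPB (47.2) and CEBPD (37.4), at DUSP6 (34.4), a phosphatase of ERK, and at SQSTM1 (34.4), an autophagy receptor. The remaining gene, DUSP5, had its nearest triple-overlap peak at 12.3 kb, inside H3K4me3 with 4.03% of bases in common.

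Fewer genes of fibroblast structure were listed. Of 18 extracellular matrix and mesenchyme genes 7 were listed, and TWIST1 and VIM were within 10 kb. At VIM, which encodes the intermediate filament vimentin of mesenchymal cells, chr8:256737780-256741953 had a score of 388 over 4174 bases, within H3K4me3 of 19194 and H3K9Ac of 16266 bases. At TWIST1, a mesodermal transcription factor, the score was 223 over 2664 bases. FN1, encoding fibronectin, had its nearest at 79.3 kb (chr7:178093315-178097801, score 347, 4487 bases, inside both marks). Of 10 RNA-processing genes 6 were listed, and CCNL1, DDX5, HNRNPF and SRSF5 had enclosed peaks within 10 kb, with scores from 58.6 at SRSF5, a splicing factor, to 290 at HNRNPF, a pre-mRNA binding protein.

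Of 14 genes imprinted in eutherians, 4 were listed and the distances were again taken from the 3'-UTR region and say nothing of the promoter. The nearest triple-overlap peak was at 47.5 kb from COPG2, a coatomer subunit, at 82.3 kb from KCNK9, a potassium channel, at 172 kb from WT1 and at 500 kb from IGF2R. The peak nearest to COPG2 crossed both borders with 16.5% in common, and that nearest to KCNK9 lay inside H3K4me3 with 25.9% in common.

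Of the candidates that the study describes as monoallelically expressed, Cstb, Rpl17 and Meis1, the nearest triple-overlap peak differed in kind. Cstb encodes the protease inhibitor cystatin B, and 0.267 kb from its listed CpG island chr4:10078398-10081694 had a score of 258 and lay inside H3K4me3 with 93.8% of its bases in common. Rpl17 is a ribosomal protein gene, and 0.291 kb from its island chr3:437578294-437580956 had a score of 118, crossed both borders with 32.0% in common and touched H3K27me3. Meis1 encodes a homeodomain factor, and the nearest peak was 3.92 kb from its island and 148 kb from its 3'-UTR region. This peak, chr1:624952182-624953442, had a score of 36.2, close to the lowest score deposited, and lay 9709 bases inside an H3K4me3 peak of 25574 bases.

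**Figure D4:**
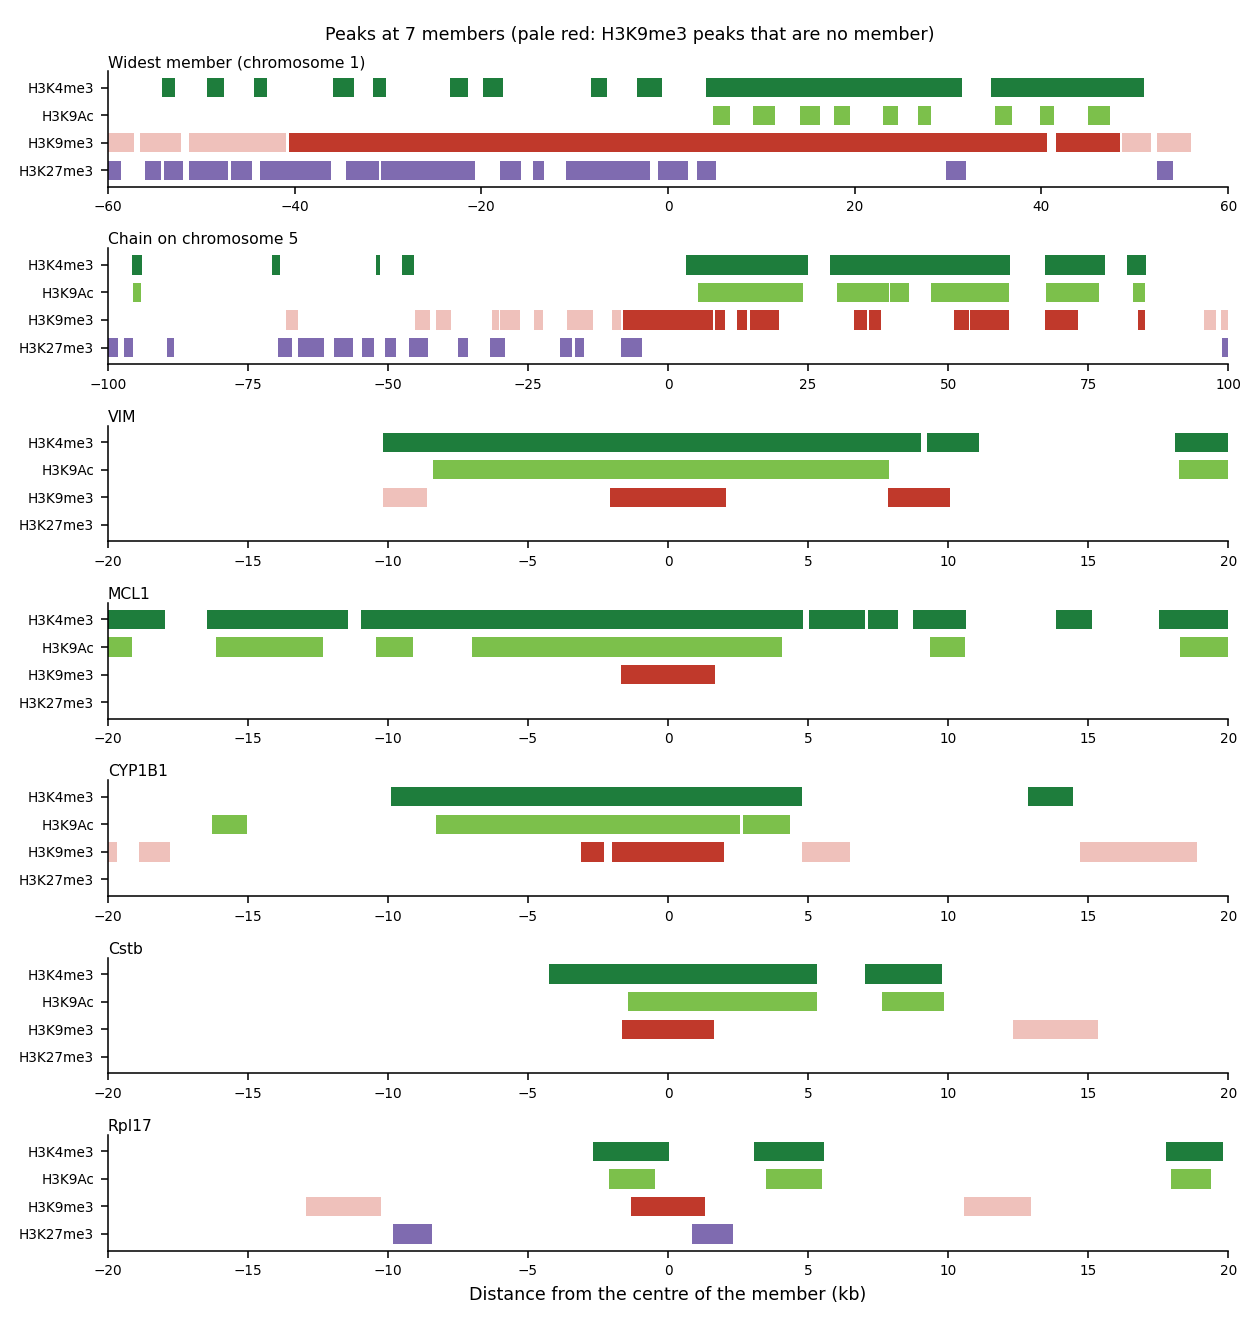
Deposited peaks of H3K4me3, H3K9Ac, H3K9me3 and H3K27me3 at 7 triple-overlap peaks ("members" in the title), drawn to scale against distance in kb from the centre of the named peak. Dark red marks triple-overlap peaks and pale red the other H3K9me3 peaks. The peak at MCL1 is the only H3K9me3 peak in its window, while the wide peak on chromosome 1 and the group on chromosome 5 have H3K27me3 mainly on the lower-coordinate side.

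Triple-overlap peaks were found on all 8 chromosomes at 0.440 per Mb. The density was similar on chromosomes 1 to 5 and 8, from 0.434 per Mb on chromosome 2 to 0.490 on chromosome 8 (Poisson interval 0.415 to 0.574), and lower on chromosome 6 (0.359, 0.294 to 0.435) and chromosome 7 (0.299, 0.236 to 0.373). Chromosome 8 exceeded chromosome 7 by 1.64 times (1.24 to 2.18), the 2 extremes having been picked after their values were seen. Chromosome 7 had 51.8 H3K9me3 peaks per Mb, above the 44.5 of all 8 chromosomes, but 10.1 H3K4me3 peaks with H3K9Ac per Mb, below the 12.9 of all. The share of such H3K4me3 peaks that were touched ranged from 2.57% on chromosome 6 to 4.34% on chromosome 5, and on chromosome 7 it was 2.95% (2.34 to 3.67). Enclosed peaks ranged from 9.88% of triple-overlap peaks on chromosome 3 (6.43 to 14.3) to 18.3% on chromosome 2 (13.6 to 23.8).

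**Figure D5:**
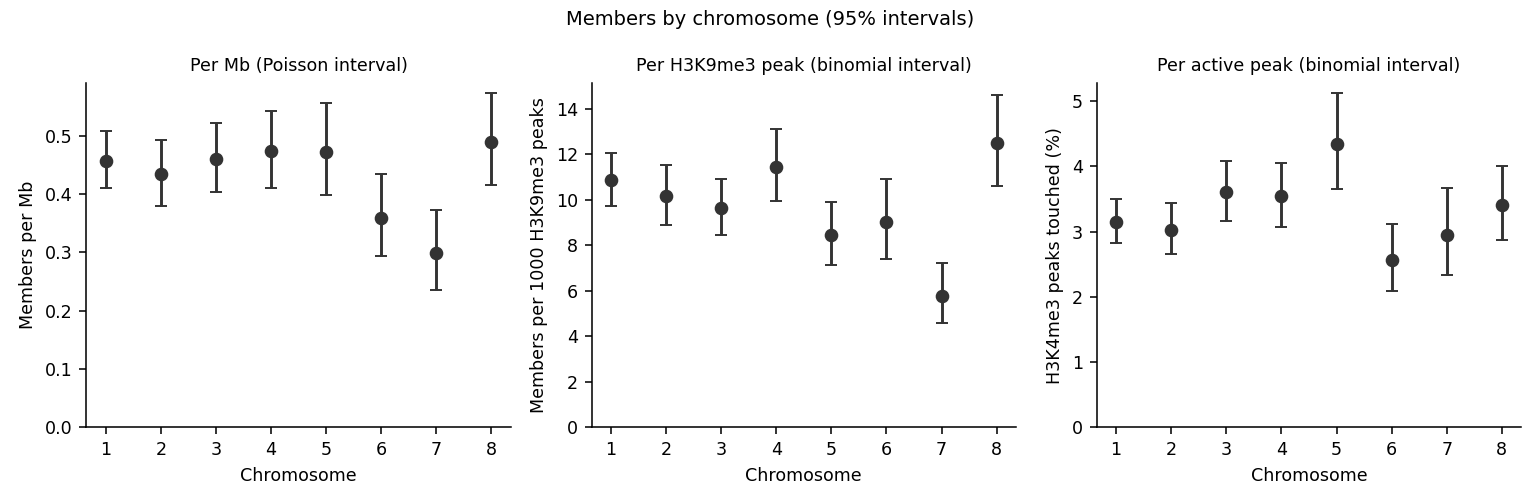
Triple-overlap peaks ("members") on chromosomes 1 to 8, per Mb with Poisson 95% intervals (left), per 1000 H3K9me3 peaks (middle) and as the percent of H3K4me3 peaks with H3K9Ac that they touch (right), both with binomial 95% intervals. Chromosome 7 is lowest per Mb (0.299) and per 1000 H3K9me3 peaks (5.78), and chromosome 6 is lowest per active peak (2.57%).

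Along the chromosomes, 97 (6.44%, 5.25 to 7.80) lay within 10 Mb of a chromosome end, against 3.97% of all H3K9me3 peaks, 3.98% of H3K4me3 peaks with H3K9Ac and 4.67% of the length. Of 3427 bins of 1 Mb, 959 (27.98%) held at least 1, and 641 of these held a single one. The bin with the most held 12, on chromosome 5 from 184 Mb, among 54 H3K9me3 peaks and 26 H3K4me3 peaks with H3K9Ac. The next held 9 (chromosome 8 from 111 Mb) and 8 (chromosome 5 from 249 Mb).

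Local clustering was limited to a minority. The nearest other triple-overlap peak was at a median of 286 kb (quartiles 50.4 and 1097), while the mean spacing was 2273 kb. These are unlike measures, since the first is a median of the smaller of 2 flanking gaps and the second a mean. Their difference is therefore no measure of clustering. In chains with gaps of up to 10 kb there were 202 of the 1506 (13.4%, 11.7 to 15.2), in 95 chains, of which 85 were pairs and the longest held 4. Most of these pairings were within a domain, since 78 of 107 neighbouring pairs within 10 kb (72.9%) touched the same H3K4me3 peak. Of the 1454 touched H3K4me3 peaks with H3K9Ac, 1381 were touched by 1 triple-overlap peak, 69 by 2, 3 by 3 and 1 by 4. A further 48 touched H3K4me3 peaks had no H3K9Ac. The next H3K9me3 peak on one side or the other was itself a triple-overlap peak for 299 (19.9%, 17.9 to 22.0), against 1.91% of all H3K9me3 peaks. Of all H3K9me3 peaks, 97.2% met neither active mark. Neighbouring H3K9me3 peaks in the same active domain can both meet the definition, so a higher share follows in part from it. For touched H3K4me3 domains, the neighbouring domain was also touched in 216 cases (14.9%, 13.1 to 16.8), compared with 2618 of 42766 untouched ones (6.12%). As 64 triple-overlap peaks touched several H3K4me3 peaks, some of the 216 can be neighbours touched by the same peak. These cases were not separated, so the contrast is no measure of clustering of separate peaks. When H3K9me3 peaks within 1000 bases were merged, the share in chains was 8.998%.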

How the data were processed

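After quality filtering the authors aligned reads to the MonDom5 build using Bowtie, and MACS peaks were called for each library over input. Per the submitters' processing notes the tools were CASAVA 1.7, Bowtie 1.1.2 and MACS 1.0.1. The deposited lists give 1 score per peak, -10 times the log10 of its p-value, and peak number and score depend on read depth and width. Starts, deposited from 0, were raised by 1 for printing, and 2 H3K9me3 starts below 0 were set to 0. Overlap required at least 1 base. The code was tested on simulated peaks and checked against bedtools 2.31.1. Python 3.11.15, numpy 2.4.6, scipy 1.17.1 and matplotlib 3.10.9 were used. Intervals are exact binomial or Poisson, and the interval of the ratio of chromosomes is conditional on their sum. Chromosome length was the highest peak end in any list.

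The regions, gene lists and alternatives were chosen with earlier results of these data known. Regions named are the highest-scoring, the widest, those with the most common bases, the 3 highest-scoring of each position, the largest groups, those nearest to Meis1, Cstb and Rpl17, and those at the limit of the definition. Gene positions are 3'-UTR regions, and islands for Meis1, Cstb and Rpl17, from the study's supplementary lists. Promoters, sequences and reads were not analysed here. Alternatives were the score thresholds, the extent of overlap, merging, shortening, gap, window and distance to genes.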

Additional observations from a re-analysis of the deposited data

How the results depend on the processing

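The number of triple-overlap peaks depended on the threshold. It was 1001 at an H3K9me3 score of at least 50, 518 at 100 and 516 where at least 50% of the peak had to lie under each active mark. With a score of at least 50, the share inside both marks was 12.6%, the share across both borders 61.3%, the median common share 29.1%, the share in chains 10.6% and the median width 1877 bases. With active peaks of a score of at least 100, 18.0% lay inside both and the median common share was 35.7%. Shortening the H3K9me3 peaks by 250 bases at both ends gave 25.8% inside both and 41.2% across both borders, and merging active peaks within 1000 bases gave 18.3% inside both. Merging H3K9me3 peaks within 1000 bases left 8.998% in chains, and gaps of 50 kb and 100 kb gave 24.8% and 33.4%. The overlap with H3K27me3 was 2.92% at an H3K27me3 score of at least 50. Other H3K9me3 peaks covered a median of 1.2% of the bases within 10 kb of triple-overlap peaks and 14.995% around peaks with neither active mark, the latter 14.6% within 200 kb. Within 100 kb, 138 candidate genes had a triple-overlap peak. The causes of these changes were not tested. Of 33 alternative values for 12 results, 12 changed little and 21 moved. Leaving out the widest peak, chosen after the data were seen, gave 37.6% of bases in common.

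No paired analysis was possible because no antibody had more than 1 library. The absence of replicates leaves the error of every count unknown, and the scores do not show the depth. Many enclosed peaks are weak, and 53.8% of them reached a score of 50.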
